A study of Mus musculus with 15 samples.

Results

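Immediate early genes are the transcripts that a cell makes first after a stimulus, and 10 of them were followed in whole mouse pituitary glands: Fos, Fosb, Jun, Junb, Egr1, Egr2, Atf3, Nr4a1, Dusp1 and Ier2. They were taken by symbol as 10 of the 55523 rows of a gene count table, and all 10 passed the low-count filter in every comparison. The RNA-seq libraries came from mice in which CRISPR/Cas9 editing had removed an enhancer (PE, for pituitary enhancer) that drives Nr5a1, which encodes the nuclear receptor NR5A1 (also named Ad4BP or SF-1) and is made in gonadotropes in the pituitary. Heterozygous mice (PE+/-), with the enhancer left on a single chromosome, were the controls for homozygous mice (PE-/-), and no wild-type library was among them. There were 4 libraries of PE+/- males, 4 of PE-/- males, 4 of PE+/- females and 3 of PE-/- females. All were untreated as far as the labels state, the age of the mice was not given in the sources used here, and each library is called by its genotype, sex and replicate number.

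The promoters of immediate early genes are occupied before the stimulus by factors such as CREB and SRF, which kinases of the cyclic AMP, calcium and MAP kinase pathways switch on, so that transcription needs no new protein and fades again soon after. In gonadotropes, gonadotropin-releasing hormone (GnRH) acts through the receptor encoded by Gnrhr and the MAP kinase chain to induce Fos, Jun and Egr1, and EGR1 acts together with NR5A1 on the promoter of Lhb, the beta subunit of luteinizing hormone. In corticotropes, Nr4a1 carries the response of Pomc to corticotropin-releasing hormone. The same genes respond to stress and handling in many tissues.

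The promoter sequences of the 4 members on which the results turn are shown because a single short motif runs through them. TGACG is the core of the cyclic AMP response element (CRE), the site that CREB binds. The windows, from RefSeq on GRCm38.p6, reach 250 bases upstream of a start site, at chr12:85473640-85473889 on the plus strand for Fos, chr8:84978749-84978998 on the minus strand for Junb, chr15:101266596-101266845 on the plus strand for Nr4a1 and chr17:26508520-26508722 on the minus strand for Dusp1, where bases inside an annotated exon were cut off. They read 5′ to 3′ on the strand of the gene, and capitals mark TGACG, its reverse complement CGTCA and, in Dusp1, the full palindrome TGACGTCA.
Fos: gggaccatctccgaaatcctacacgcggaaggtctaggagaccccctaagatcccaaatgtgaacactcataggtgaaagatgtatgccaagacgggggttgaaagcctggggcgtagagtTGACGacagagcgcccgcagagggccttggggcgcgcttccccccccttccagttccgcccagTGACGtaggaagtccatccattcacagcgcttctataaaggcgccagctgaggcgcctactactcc
Junb: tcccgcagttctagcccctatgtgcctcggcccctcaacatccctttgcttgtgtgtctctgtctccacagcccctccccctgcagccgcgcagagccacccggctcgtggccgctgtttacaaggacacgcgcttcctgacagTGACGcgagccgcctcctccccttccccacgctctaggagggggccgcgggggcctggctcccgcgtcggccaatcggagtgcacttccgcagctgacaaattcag
Nr4a1: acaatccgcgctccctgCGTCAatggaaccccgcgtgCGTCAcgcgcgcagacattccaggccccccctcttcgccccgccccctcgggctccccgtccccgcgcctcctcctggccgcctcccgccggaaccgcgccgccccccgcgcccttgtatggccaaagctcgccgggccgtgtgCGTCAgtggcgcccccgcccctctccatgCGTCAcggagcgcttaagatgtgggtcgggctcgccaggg
Dusp1: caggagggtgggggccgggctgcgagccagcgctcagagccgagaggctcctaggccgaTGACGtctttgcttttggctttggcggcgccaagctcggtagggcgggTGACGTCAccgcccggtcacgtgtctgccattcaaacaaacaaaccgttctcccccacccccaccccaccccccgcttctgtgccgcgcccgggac

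Of the 10 members, 8 had a start site in the RefSeq promoter table (Egr1 and Ier2 had none there), in 12 windows because Egr2 has several. TGACG on either strand stood in at least 1 window of 7 of these 8 members, all but Jun. Over all genes 17.8% of 32851 promoters held it, counted window by window, so that the shares are not strictly alike. The match of Atf3, at bases -7 to -3, lay in the 7 bases that an annotated exon covers. Fos held it at bases -129 to -125 and -66 to -62 from the start site, Junb at -106 to -102, and Nr4a1 at 4 places. The palindrome TGACGTCA was found in Dusp1 alone (bases -143 to -136) and in 1.55% of all promoters. The CArG box, which SRF binds, was found in Egr2 (1.47% of all promoters), the EGR motif GCGNGGGCG in Fosb and Nr4a1 (4.7%), and TATAAA in Fos (12.4%). No member held the AP-1 motif TGANTCA (6.75% of all promoters), the NR4A1 motif AAAGGTCA (1.34%) or the NR5A1 motif CAAGGTCA (1.33%) in its window. A match is a run of letters and not a bound site, and both strands were searched for every motif, so that TGACG is counted again inside TGACGTCA.

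Libraries held 12982794 to 30238443 estimated counts, of which about 4 stood for 1 fragment, and 12 counts (3 fragments) served as the detection floor. The labels checked out at the edited gene. Nr5a1 lay between 33.7 and 80.2 CPM (counts scaled to the size of each library) in the 8 PE+/- libraries and between 0 and 0.897 in the 7 PE-/- libraries. Gnrhr lay between 76.3 and 197 CPM in PE+/- and between 1.88 and 9.68 in PE-/-. In bulk tissue fewer gonadotropes and less RNA per gonadotrope cannot be told apart. Libraries differed in what they contained beyond the groups. The posterior-lobe transcripts Oxt and Avp were above 0 in PE+/- males 2 and 4 and PE-/- males 3 and 4 and at 0 in the other 11 libraries. Avp in PE+/- male 2, at 4 counts, was under the floor. Col25a1, another posterior-lobe marker, was highest in the same libraries, at 22.0 to 64.8 CPM. It was also at 3.83 to 17.0 CPM in PE+/- females, against 0.394 to 2.44 CPM in PE-/- females. Mitochondrial transcripts took 6.07% and 6.55% of PE+/- females 2 and 3 and 1.84% to 3.50% of the rest.

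No member passed an adjusted p of 0.05 between PE-/- and PE+/- males, where 0.132% of 17392 genes did (edgeR quasi-likelihood F test with Benjamini-Hochberg adjustment, 4 against 4 libraries). Nr4a1, an orphan nuclear receptor, was the member with the largest difference. It was at 252, 194, 346 and 40.3 CPM in PE+/- males 1 to 4 and at 1086, 945, 362 and 581 CPM in PE-/- males 1 to 4. The groups did not overlap, which held upwards for 2.54% of the genes tested, and the means were 208 ± 128 and 743 ± 331 CPM (SD, n = 4 each). The log2 fold change was 1.84 (SE 0.60, 95% interval 0.46 to 3.21), with an unadjusted p of 0.0149 and an adjusted p of 0.611 by edgeR. Without each library in turn it stayed between 1.49 and 2.20. It was the only member with an unadjusted p under 0.05 in males (6.14% of all genes), and DESeq2 also called 0 members, with an adjusted p of 0.0909 for Nr4a1 (0.0909 to 0.985 over its 17 alternatives).

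The subunits of AP-1, the dimeric factor built from FOS and JUN proteins, did not pass in males. Junb was at 1331, 764, 781 and 524 CPM in PE+/- males and at 1099.7, 1193, 889 and 2183 CPM in PE-/- males, so that PE+/- male 1 reached above 3 of the 4 PE-/- libraries. Its log2 fold change was 0.66 (SE 0.35, adjusted p = 0.903, edgeR). Fos, the classical partner of JUN, was at 387, 199, 72.4 and 196 CPM in PE+/- and at 14.5, 17.1, 294 and 781 CPM in PE-/- males. The PE-/- males thus held both the lowest and the highest male values, and the log2 fold change of 0.37 had a 95% interval from -2.24 to 2.99. The pair of PE-/- males with high Fos were the ones with Oxt above 0 (19.9 and 4.72 CPM), whereas Fos was at 199 and 196 CPM in the PE+/- males with Oxt and at 387 and 72.4 CPM in those without. The part of posterior-lobe tissue in the Fos values was not tested.

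Jun was nearly level among PE-/- males, from 62.6 to 73.6 CPM, and ran from 13.1 to 127 CPM among PE+/- males (log2 fold change 0.04, SE 0.54). Fosb, a close relative of Fos, was at 10.8, 1.99, 3.54 and 1.42 CPM in PE+/- and at 8.55, 7.51, 1.27 and 8.65 CPM in PE-/- males. In each group a single library stood apart, PE+/- male 1 above and PE-/- male 3 below, and the log2 fold change was 0.55 (SE 0.74).

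The remaining members in males showed no more. Egr1, the zinc finger factor of the GnRH response, was at 1030.5 CPM in PE+/- male 1 and at 108 to 138 CPM in the other 3, against 57.9 to 612 CPM in PE-/- males (log2 fold change -0.10, SE 0.89). Without PE+/- male 1 its log2 fold change was 1.38 (adjusted p = 0.781 by edgeR, the lowest over its 17 alternatives, with 1.0 the highest). Dusp1, the phosphatase that switches MAP kinases off, followed the same library, at 637 CPM in PE+/- male 1 and 19.0 to 80.7 CPM in the other 3, against 70.3, 185, 347 and 406 CPM in PE-/- males. Its log2 fold change was 0.40 (SE 1.08), and 2.57 without PE+/- male 1 (adjusted p = 0.547 by edgeR, range over 17 alternatives 0.547 to 1.0). Ier2, a nuclear protein induced by growth factors, differed by 0.37 (95% interval -0.25 to 0.99), and Atf3, a stress-induced relative of CREB, by 0.08 (-0.73 to 0.89). Egr2, a relative of Egr1, was at 0 to 70 counts over all 15 libraries, with 6 libraries at 0, so that its difference of 1.73 (SE 1.43) could not be told from 0 at this depth.

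**Figure D1:**
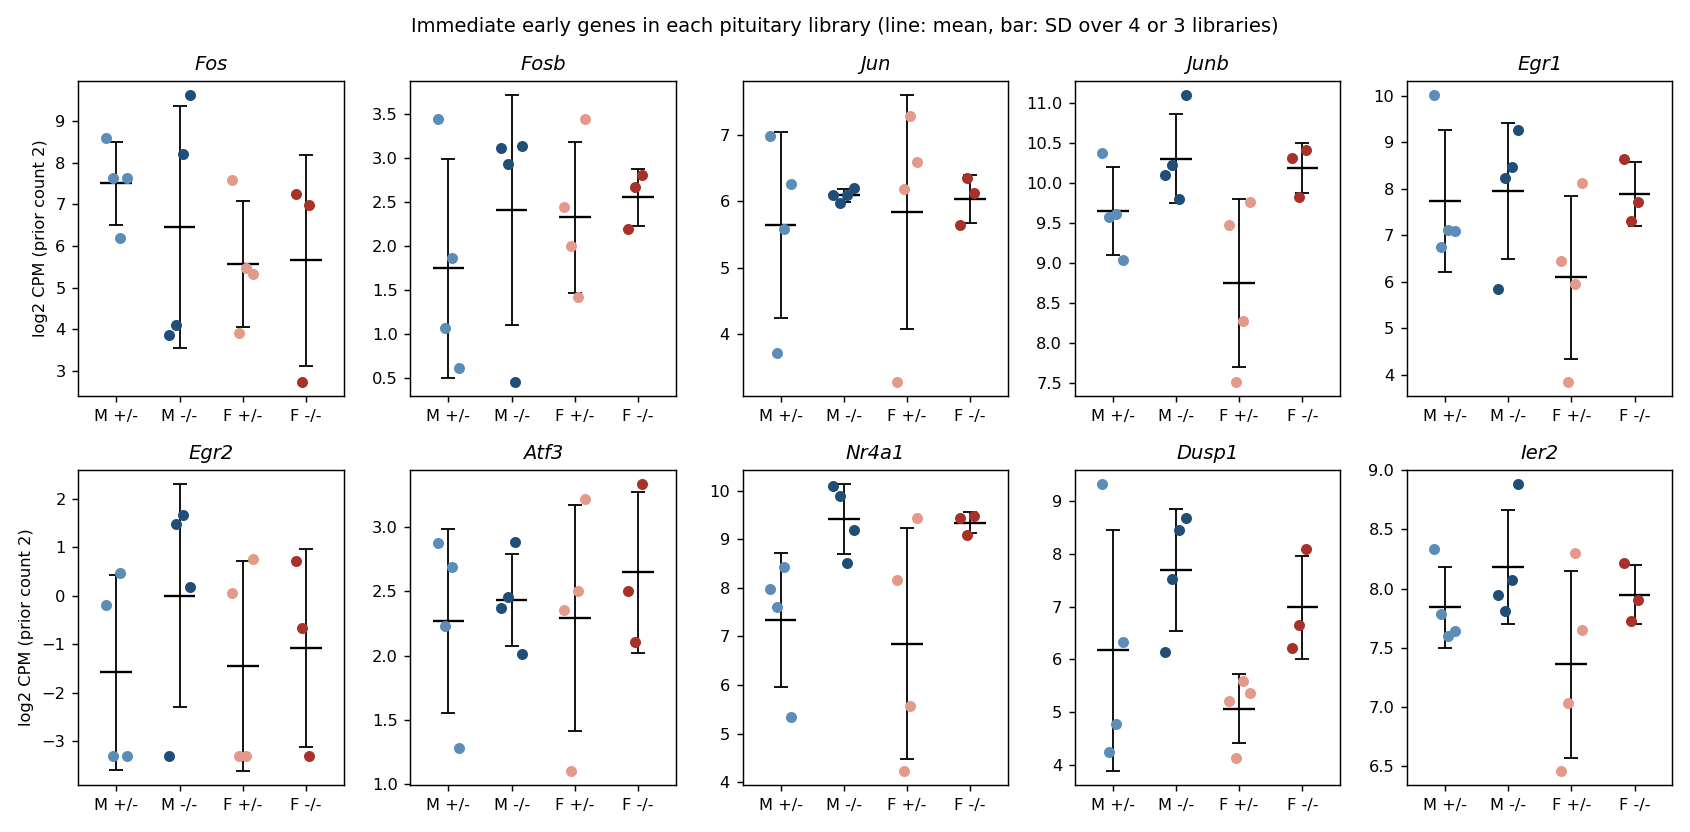
Level of each of the 10 immediate early genes in each of the 15 libraries, as log2 CPM with a prior count of 2 (vertical axes, a scale of its own per gene), by group (M and F, male and female; +/- and -/-, PE genotype); horizontal lines are group means and bars the SD over 4 or 3 libraries. Nr4a1 in males and Junb and Dusp1 in females are the genes whose PE-/- points all lie above the PE+/- points, and Jun is tight in the PE-/- males (62.6 to 73.6 CPM) and wide in the PE+/- groups.

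In females the largest differences were those of Dusp1, Nr4a1, Egr1 and Junb, and again 0 members passed an adjusted p of 0.05 by edgeR, against 1.05% of 18085 genes (3 against 4 libraries). Dusp1 was at 36.8, 17.4, 48.0 and 41.1 CPM in PE+/- females and at 74.4, 100.4 and 271 CPM in PE-/- females. Every PE-/- female thus lay above every PE+/- female, as in 9.64% of the genes tested. The means were 35.8 ± 13.1 (SD, n = 4) and 149 ± 107 CPM (SD, n = 3), and the log2 fold change was 2.04 (SE 0.51, 95% interval 0.85 to 3.24) with an unadjusted p of 0.0046 and an adjusted p of 0.11 by edgeR. Without each library in turn the log2 fold change ran from 1.29 to 2.37, with the lowest value without PE-/- female 3. Dusp1 was the only member at an unadjusted p under 0.05 in females, where 16.1% of all genes were. DESeq2 called 1 member, Dusp1, with a log2 fold change of 2.05 and an adjusted p of 0.00289 (0.00289 to 0.319 over its 16 alternatives), and called 1431 genes in all against 189 by edgeR.

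Junb was at 710, 183, 309 and 868 CPM in PE+/- females and at 1271, 909.9 and 1362 CPM in PE-/- females. These groups did not overlap either, with PE+/- female 4 close below PE-/- female 2. The log2 fold change was 1.18 (SE 0.51, 95% interval -0.01 to 2.37, unadjusted p = 0.0514, adjusted p = 0.314, edgeR). Nr4a1 was at 284, 18.8, 47.5 and 695 CPM in PE+/- females and at 692, 545 and 717 CPM in PE-/- females. PE+/- female 4 reached the PE-/- level and PE+/- females 2 and 3 lay far below it, so that the log2 fold change of 1.31 had an SE of 1.04. Those 2 libraries were the ones with the high mitochondrial share, and they were also the lowest PE+/- females for Junb and Egr1. PE+/- female 3 was, however, the highest PE+/- female for Jun (155 CPM), Ier2 (315 CPM) and Dusp1 (48.0 CPM). The part of the mitochondrial share in the low values of Nr4a1, Junb and Egr1 was not tested. Without PE+/- female 2 the difference of Nr4a1 was 0.92, and without PE+/- female 4 it was 2.45.

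Egr1 was at 87.0, 14.3, 62.1 and 279 CPM in PE+/- females and at 398, 158 and 212 CPM in PE-/- females. PE+/- female 4 lay inside the range of the PE-/- females and the other 3 below it (log2 fold change 1.20, SE 0.84). Fos was at 192, 14.95, 43.9 and 40.2 CPM in PE+/- and at 152, 6.59 and 126 CPM in PE-/- females, where the groups overlapped fully and a single library of each stood apart from the rest. Jun, the lower member in PE-/- females, differed by -0.32 (SE 0.73), with PE+/- female 1 at 9.61 CPM and the other 3 at 72.5 to 155. Ier2 (0.44), Atf3 (0.27), Egr2 (0.12) and Fosb (0.06) had intervals on both sides of 0.

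The lean of the members was upward in both sexes. The fitted difference was above 0 for 9 of 10 members in males (all but Egr1) and for 9 of 10 in females (all but Jun), while 50.4% and 50.2% of all genes tested lay above 0. The median over the members was 0.38 in males and 0.40 in females, against 0.00 over all genes in each sex. The members were read from the same libraries, so that these 9 are not separate pieces of evidence. Gnrhr fell by 4.75 and 3.80 on the log2 scale in males and females (adjusted p = 0.00991 and 0.00633, edgeR), and no member had a fall that passed. The members were read from whole glands, so that a change of theirs within gonadotropes was not tested.

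Of the markers of other pituitary cell types and of blood, 1 passed between the genotypes by edgeR. This was Prl, the hormone of lactotropes, which was at 34046, 29367, 21965 and 35113 CPM in PE+/- females and at 5189, 4459 and 5603 CPM in PE-/- females, without overlap (log2 fold change -2.58, SE 0.21, adjusted p = 0.00698, edgeR), and its 2 fellow lactotrope markers did not pass. In males Prl differed by -0.17 (SE 0.63). All 5 erythroid genes lay below 0 in both sexes (medians -0.89 in males and -0.85 in females) and 0 passed, with summed levels of 499 to 1263 and 571 to 1346 CPM in PE+/- males and females and 204 to 895 and 384 to 791 CPM in PE-/- males and females. The 5 corticotrope and melanotrope markers lay above 0 for 4 of 5 in males and 5 of 5 in females (medians 0.60 and 0.45), and 0 passed. Their summed level, which is mostly Pomc, ran from 15652 to 58713 CPM in PE+/- and from 5262 to 115900 CPM in PE-/- males, and from 25963 to 48606 and 46283 to 52244 CPM in females. Of the stem or folliculostellate markers 4 of 4 tested lay above 0 in each sex (medians 0.34 and 0.57) and 0 passed by edgeR, while DESeq2 called Aldh1a2 higher in females (adjusted p = 0.00015). Their summed level was 209 to 324 and 202 to 549 CPM in PE+/- males and females and 317 to 446 and 357 to 479 CPM in PE-/- males and females. DESeq2 also called the posterior-lobe marker Col25a1 lower in PE-/- females (log2 fold change -3.03, adjusted p = 0.000935). It called the endothelial marker Cldn5 higher in PE-/- males (log2 fold change 1.36, adjusted p = 0.0152). Cldn5 went against its list there, since 5 of the 6 endothelial markers lay below 0 in males and 4 of 6 in females. The medians of the endothelial markers were -0.37 and -0.31, and 0 passed by edgeR in either sex. The part of these cell types in the members' differences was not tested.

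**Figure D2:**
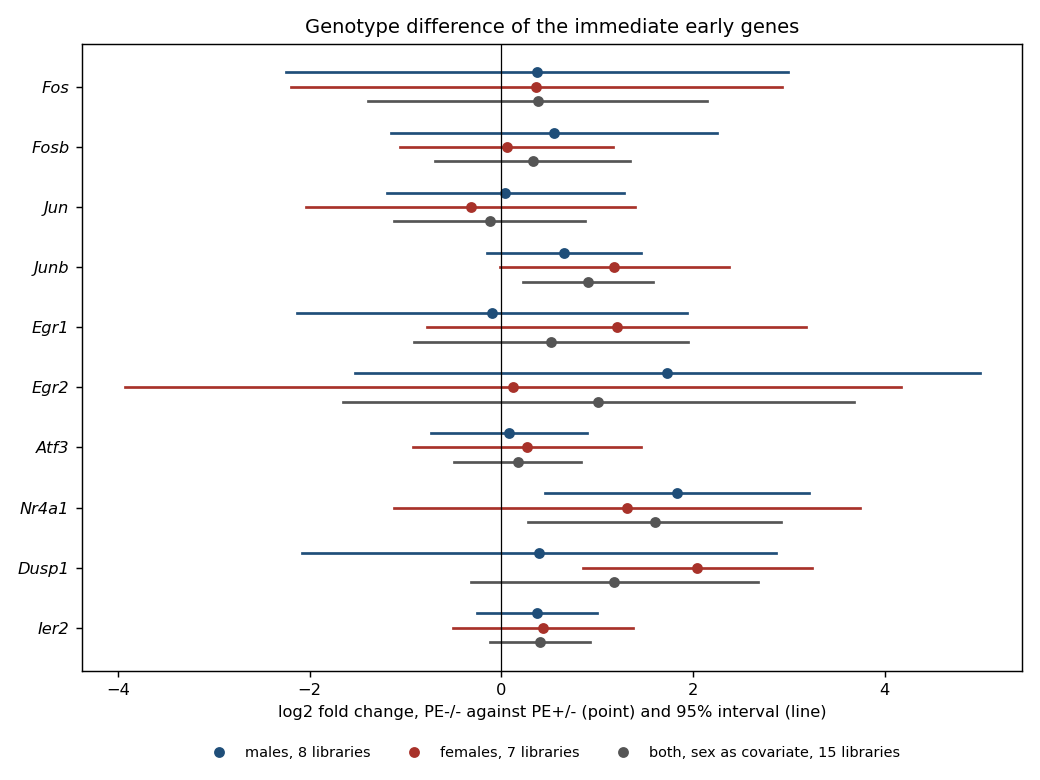
Log2 fold change of PE-/- against PE+/- for each immediate early gene (points) with its 95% interval (lines), in males (8 libraries), in females (7 libraries) and over both with sex as a covariate (15 libraries). Most intervals span 0, and those that do not are Nr4a1 in males (0.46 to 3.21), Dusp1 in females (0.85 to 3.24), and Junb and Nr4a1 over both sexes.

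The genotypes were also compared over all 15 libraries with sex as a covariate, a fit chosen after seeing the data. Here 1.17% of 19286 genes passed by edgeR and 0 members did, while Junb and Nr4a1 had an unadjusted p under 0.05 (12.7% of all genes). The log2 fold change of Junb was 0.91 (SE 0.32, unadjusted p = 0.0129, adjusted p = 0.226) and that of Nr4a1 was 1.599 (SE 0.62, unadjusted p = 0.0208, adjusted p = 0.278). DESeq2 called 0 members as well. Dusp1 was at 1.18 (SE 0.70, adjusted p = 0.551) and passed without PE+/- male 1, at 2.32 with an adjusted p of 0.034 by edgeR (range over its 23 alternatives 0.034 to 0.818).

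That library needs a closer description for Dusp1. In the annotation the span of Dusp1 (chr17:26505590-26562128, minus strand) overlaps Ergic1 and 3 other genes. PE+/- male 1 had 9034 counts of Dusp1 and 1276 counts of Ergic1, whereas the other 14 libraries had 410 to 7411 counts of Dusp1 and 5568 to 14515 counts of Ergic1. The same library was thus the highest for Dusp1 and the lowest for Ergic1, and how reads were shared between the overlapping genes was not tested. The annotated span of Junb (chr8:84974484-84978718, minus strand) overlaps Prdx2 and that of Jun (chr4:95049034-95052222, minus strand) overlaps the antisense gene Junos, which had 5 to 56 counts. Prdx2 had 888 counts in PE-/- male 3, where Junb had 18974, and 2455 to 7005 counts in the other libraries. The sharing of reads between Junb and Prdx2 was not tested either. Fos (chr12:85473890-85477273, plus strand), Nr4a1 (chr15:101254269-101274795, plus strand), Egr1, Egr2, Fosb and Ier2 overlapped no other gene.

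Between the sexes 0 members passed in PE+/- mice, where 0.67% of 17163 genes did (edgeR, 4 females against 4 males), and 0 had an unadjusted p under 0.05 (13.5% of all genes). Dusp1 was the lowest in females relative to males, with a log2 difference of -2.43 (SE 1.08, unadjusted p = 0.0537), which became -0.23 without PE+/- male 1. Egr1 (-1.69, SE 1.02) followed and became -0.21 without the same library. Fos came next (-1.54, SE 0.80). For Fos 3 of the 4 PE+/- females, all but female 1, lay below all 4 PE+/- males. The other members ran from -0.71 for Junb to 0.34 for Fosb.

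In PE-/- mice, again 0 members passed between the sexes (0.0494% of 18217 genes did, 3 females against 4 males, edgeR), and 0 had an unadjusted p under 0.05 (3.37% of all genes). Jun was the most alike, with a difference of -0.02 and a 95% interval of -0.44 to 0.39, and Nr4a1 differed by -0.19 (-1.03 to 0.65). Fos was fitted 1.54 lower in females on the log2 scale, with an interval from -5.15 to 2.07 that reflects its spread in both groups. The fitted value was lower in females for 9 of 10 members (all but Atf3), with a median of -0.23 against 0.00 over all genes. The difference between the sexes in the response to PE deletion was tested over all 15 libraries, where 0 members passed (0.161% of 19286 genes did, edgeR) and 0 had an unadjusted p under 0.05 (10.1% of all genes). Its values ran from -1.59 for Egr2 to 1.65 for Dusp1 (SE 1.35), and the test did not tell the sexes apart for Dusp1 or Nr4a1. DESeq2 called 0 members in these 3 comparisons, but for sex in PE+/- it gave 2 of the 10 members no adjusted p.

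Ordered by mean, Nr4a1 ran from 208 CPM in PE+/- males and 261 in PE+/- females to 651 in PE-/- females and 743 in PE-/- males. Junb had the same separation of the genotypes, with 518 CPM in PE+/- females, 850 in PE+/- males (849.8 ± 341, SD, n = 4), 1181 in PE-/- females and 1341 in PE-/- males. Dusp1 stood at 35.8 CPM in PE+/- females and at 149, 191 and 252 CPM in PE-/- females, PE+/- males and PE-/- males. No pair of neighbouring groups in these orders passed by edgeR where the pair was tested.

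At the median, the spread between libraries of the same group was wider for the members than for all genes in each of the 4 groups, and least so in PE-/- females. Among genes with a mean of at least 20 counts in a group, the median coefficient of variation (CV, the SD as a percent of the mean) of the members was 61.6% in PE+/- males, 49.4% in PE-/- males, 63.8% in PE+/- females and 23.9% in PE-/- females. All genes had medians of 21.8%, 19.3%, 23.7% and 18.3%. The CV exceeded the 90th percentile of all genes for 4 of 9 members in PE+/- males, 4 of 10 in PE-/- males, 6 of 9 in PE+/- females and 2 of 9 in PE-/- females. Fos had a CV of 130.4% in PE-/- males, where its highest library was 53.8 times its lowest, and Dusp1 one of 156% in PE+/- males. At the other end stood Jun in PE-/- males (6.55%) and Nr4a1 in PE-/- females (14.3%).

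Single libraries moved many members at the same time. In PE+/- male 1 all 10 members were above their group mean, by a median of 1.22 on the log2 scale. In PE+/- female 4 it was 9 of 10 (median 0.97) and in PE-/- male 4 it was 8 of 10 (0.71), whereas in PE+/- female 2 it was 1 of 10 (-1.21). PE+/- male 1 also had the highest level of the endothelial marker Plvap, at 285 CPM against 12.2 to 66.8 in the other libraries. The other 5 endothelial markers (Pecam1, Cdh5, Kdr, Emcn and Cldn5) were within the range of the other libraries there. The part of the cell make-up in the members' values was not tested.

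**Figure D3:**
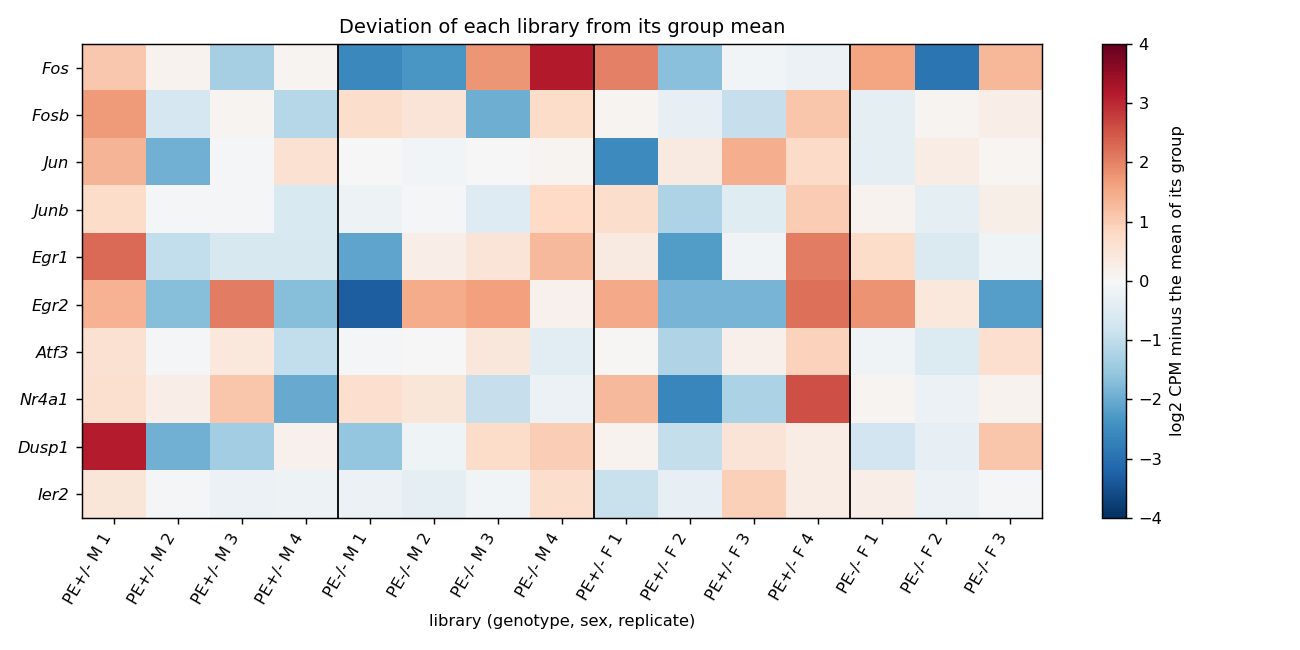
Deviation of each of the 10 immediate early genes (rows) in each of the 15 libraries (columns, named by genotype, sex and replicate) from the mean of its own group, on the log2 CPM scale (red above, blue below). PE+/- male 1 is above its group for all 10 genes and PE+/- female 2 below for 9, while Fos in the PE-/- males splits into 2 low and 2 high libraries.

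To describe which members rose and fell together, each gene's log2 CPM was centred on its group mean and correlated over the 15 libraries. Pearson's r was above 0 for 38 of 45 pairs, with a median of 0.36 and a range from -0.27 to 0.82. No pair passed an adjusted p of 0.05 in the exact permutation test within groups, by r or by Spearman's rho, and 10 pairs by r and 9 by rho had an unadjusted p under 0.05. The closest pair was Junb and Nr4a1 (r = 0.82, permutation p = 0.0179, adjusted p = 0.11; rho = 0.72, permutation p = 0.0347, adjusted p = 0.200), with r = 0.63 without the 2 libraries farthest from the median. Junb and Egr1 had r = 0.78 (permutation p = 0.00655, adjusted p = 0.11) and rho = 0.69 (permutation p = 0.0174, adjusted p = 0.195), with r = 0.61 without the 2 farthest libraries.

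Egr1 and Dusp1 had r = 0.73 (permutation p = 0.0068, adjusted p = 0.11) and rho = 0.69 (permutation p = 0.0117, adjusted p = 0.195), with r = 0.64 without the 2 farthest libraries. Atf3 and Nr4a1 had the same r of 0.73, but this fell to 0.42 without PE+/- female 2 and PE+/- male 4, so that it rested partly on them. Egr1 was the member closest to the mean of all 10, which includes it (r = 0.94), followed by Junb (0.85), and Jun was the farthest (0.29). Jun went against Nr4a1 (r = -0.27), Fos (-0.20) and Junb (-0.17) and with Ier2 (r = 0.64).

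**Figure D4:**
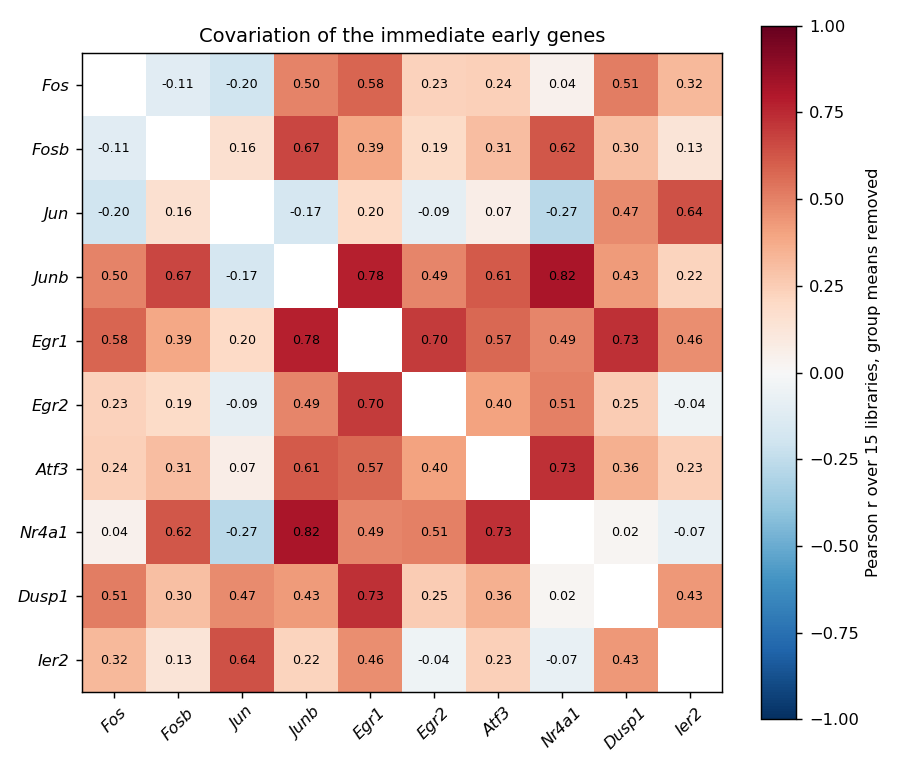
Pearson's r between each pair of the 10 immediate early genes over 15 libraries, after the mean of each group was removed from log2 CPM (red, positive; blue, negative). Egr1, Junb, Atf3, Nr4a1 and Dusp1 share most of the high values, up to 0.82 for Junb with Nr4a1, and Jun has low or negative values with most members except Ier2 and Dusp1.

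Jun also differed from the others in how widely its pattern was shared. Of 16027 genes, 7.33% had an r above 0.7 with Jun, against 0.206% (Egr2) to 1.62% (Dusp1) for the other members. Its low libraries were PE+/- male 2 (13.1 CPM) and PE+/- female 1 (9.61 CPM). Outside the list, the 10 genes of 16018 with the highest r with the members' mean were Cited4 (0.86), Sertm1 (0.85), Paxx (0.84), Aatk (0.84), Sirt3 (0.83), Akt1s1 (0.82), Pld2 (0.81), Polr2m (0.80), 4632433K11Rik (0.80) and Stat6 (0.80). None of the other immediate early genes listed was among these 10. These correlations are descriptions over 15 libraries that share groups and depth, and they carry no test.

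The library total was tested against each member. Fos had r = -0.65 (permutation p = 0.0162, adjusted p = 0.162) and Junb r = -0.62 (permutation p = 0.0356, adjusted p = 0.178), the strongest of the 10. None of the 10 relations passed the adjusted p by r or by rho (rho = -0.64 and -0.63, adjusted permutation p = 0.125 for both), and the 2 values of r without the 2 farthest libraries were -0.56 and -0.51. Over the 8 PE+/- libraries, which still hold gonadotrope transcripts, 0 of 30 relations of a member with Lhb, Fshb or Gnrhr passed the exact permutation test after adjustment (smallest adjusted p = 0.156). Atf3 had r = 0.79 with Gnrhr (permutation p = 0.0313, adjusted p = 0.234; rho = 0.62, permutation p = 0.156), falling to 0.25 without the 2 farthest libraries. Nr4a1 had r = 0.71 with Gnrhr (permutation p = 0.0243, adjusted p = 0.234; rho = 0.67, permutation p = 0.0625), falling to 0.22. Fosb had r = 0.68 with Fshb, the beta subunit of follicle-stimulating hormone (permutation p = 0.0104, adjusted p = 0.156; rho = 0.67, permutation p = 0.0486), falling to 0.55. Egr2 is left out here because 4 of these 8 libraries had no count of it.

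Relatives of the members were read from 7 further lists. Of the other AP-1 family genes, 5 of 9 were tested in each sex and 0 passed by edgeR or DESeq2. Batf, a leucine zipper partner of JUN proteins, had the highest fitted difference in males, but with 3 to 9 counts all 4 PE+/- males were under the floor and no fold is given (0.139 to 0.582 CPM in PE+/- and 0.607 to 1.37 CPM in PE-/- males). Mafk had the lowest in both sexes (-0.29 in males and -0.27 in females, adjusted p = 0.904 and 0.661, edgeR), and Fosl2 was the highest in females, at 0.11. Among the other immediate early transcription factors 0 of 16 passed in males and 0 of 15 in females by edgeR, and the counts at an unadjusted p under 0.05 were 1 and 4, against 6.14% and 16.1% of all genes. Npas4, the neuronal activity factor, had the highest fitted difference in both sexes. It was at 0.634, 0.278, 1.77 and 0 CPM in PE+/- males and at 3.19, 5.02, 1.41 and 7.45 CPM in PE-/- males, and at 0.938, 0, 0.599 and 0.549 CPM in PE+/- females and 1.61, 4.89 and 9.77 CPM in PE-/- females. No fold is given because 3 of the PE+/- males and all 4 PE+/- females were at or under the floor (adjusted p = 0.662 in males and 0.148 in females, edgeR). Cebpb was the lowest in males (-0.75, adjusted p = 0.921, edgeR). In females DESeq2 called Npas4 and Csrnp1 higher (adjusted p = 0.0145 and 0.0135) and Myc lower (log2 fold change -0.94, adjusted p = 0.00399), among 1431 of 18085 genes. With sex as a covariate DESeq2 called Npas4 higher and Myc lower (adjusted p = 0.00219 and 0.0257), among 768 of 19286 genes.

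The other NR4A receptors leaned the way of Nr4a1. Over both sexes, with sex as a covariate, Nr4a2 differed by 1.34 (SE 0.48, adjusted p = 0.23) and Nr4a3 by 1.36 (SE 0.46, adjusted p = 0.205, edgeR), and these 2 genes are named here after their values were seen. Nr4a3 in females was at 8.52, 1.51, 1.80 and 5.86 CPM in PE+/- and at 10.1, 17.9 and 17.1 CPM in PE-/-, without overlap. Such a separation upwards held for 9.64% of all genes tested in females. The interval of none of the 3 receptors was narrow enough to pass after adjustment.

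Of the feedback inhibitors, proteins that shut the signal off as Dusp1 does, 18 of 19 were tested in each sex and 0 passed by edgeR. In females 6 of 18 were higher at an unadjusted p under 0.05, against 7.75% of all genes upwards, and 0 lower, and in males 0 were either. The lowest were Zfp36 in males (-0.36, adjusted p = 0.953) and Rgs2 in females (-0.46, adjusted p = 0.517, edgeR). The largest in both sexes was Dusp4 (0.99 in males, adjusted p = 0.972), a phosphatase of the same family as Dusp1, at 0, 0, 0.327 and 0 CPM in PE+/- females and 1.79, 5.60 and 3.68 CPM in PE-/- females (adjusted p = 0.0783, edgeR). No fold is given for it because the PE+/- females were at the floor. DESeq2 called 4 of the 18 in females, namely Dusp4, Spry1, Trib1 and Errfi1, and 0 in males. It called 1431 of 18085 genes in females and 206 of 17392 in males. With sex as a covariate DESeq2 called Trib1 alone of this list (adjusted p = 0.0272), among 768 of 19286 genes. Trib1, a pseudokinase, was at 23.8 to 44.0 CPM in PE+/- and 60.8 to 75.7 CPM in PE-/- females (log2 fold change 1.07, adjusted p = 0.0878 by edgeR).

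Of the immediate early effectors, genes that do not encode transcription factors, 13 of 15 were tested in each sex and 0 passed by edgeR. At an unadjusted p under 0.05, 1 was higher and 1 lower in males (6.14% of all genes in either direction). In females 3 were higher and 0 lower (16.1% of all genes in either direction, 7.75% upwards). With sex as a covariate 5 of 14 were higher and 2 lower (12.7% of all genes in either direction). Gadd45g, a stress sensor, was the lowest of the list in both sexes. It was at 9.37, 47.7, 79.5 and 48.3 CPM in PE+/- and 23.1, 27.1, 5.48 and 25.9 CPM in PE-/- males, and at 64.6, 39.7, 356 and 47.4 CPM in PE+/- and 26.4, 49.9 and 8.32 CPM in PE-/- females. The groups overlapped in both sexes, and the log2 fold changes of -1.18 (SE 0.65) and -2.17 (SE 0.98) did not pass (adjusted p = 0.904 and 0.34, edgeR). Gadd45b, its relative, was the highest in males, at 1.18 (SE 0.52, adjusted p = 0.813, edgeR). Thbs1, the matrix protein thrombospondin, was at 3.31 to 5.57 CPM in PE+/- and at 5.80 to 7.13 CPM in PE-/- males, and at 2.72 to 4.96 against 7.09 to 11.4 CPM in females. Its groups did not overlap in either sex, as held upwards for 2.54% of all genes in males and 9.64% in females, and with sex as a covariate it passed, with a log2 fold change of 0.87 (SE 0.19, adjusted p = 0.0372, edgeR). It was the only gene of the members and these 7 lists to pass by edgeR in any of the 6 comparisons. Sgk1, a kinase induced by glucocorticoids, differed by 1.02 in females (adjusted p = 0.0578 by edgeR). DESeq2 called Sgk1 and Thbs1 in females, among 1431 of 18085 genes, and 0 effectors in males. With sex as a covariate it called Ptgs2, Sgk1 and Thbs1 higher (adjusted p = 0.00307, 0.018 and 0.00138), among 768 of 19286 genes. Ptgs2 was at 0 to 6 counts in PE+/- and at 4 to 27 counts in PE-/- libraries. No fold is given for Ptgs2 because every PE+/- library was under the floor.

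Upstream of the members, 0 of 12 factors (CREB, SRF and their partners) and 0 of 13 MAP kinase chain genes passed between the genotypes by edgeR in either sex. DESeq2 called 0 of them as well, but it gave 1 of the factors no adjusted p in males. At an unadjusted p under 0.05 by edgeR there were 1 and 0 in females (16.1% of all genes) and 0 and 0 in males (6.14%). The list medians were -0.23 and -0.03 in males and 0.15 and 0.03 in females. The highest and lowest of the factors were Creb1 (1.91) and Crem (-1.62) in males and Creb1 (0.96) and Elk3 (-0.59) in females. Creb1 was at 6.53 to 7.88 CPM in PE+/- males and at 7.54, 7.31, 7.26 and 87.8 CPM in PE-/- males. Its male difference thus rested on PE-/- male 4. In females it was at 92.1, 8.84, 7.35 and 25.7 CPM in PE+/- and at 96.0, 92.6 and 8.36 CPM in PE-/-. Crem was at 105, 137, 2.20 and 115 CPM in PE+/- males and at 105, 9.73, 0.797 and 1.08 CPM in PE-/- males. Those of the MAP kinase chain in females were Map2k1 (0.25) and Mapk8 (-0.29).

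Heat shock genes, a separate early response, had 0 of 11 past the edgeR threshold. In females 4 of 11 were higher at an unadjusted p under 0.05, against 7.75% of all genes upwards, led by Hspa1b (1.72, adjusted p = 0.0763) and Hspa1a (1.53, adjusted p = 0.11), both called by DESeq2. In males 1 was lower (6.14% of all genes in either direction). The lowest were Hspb1 in males (-0.55) and Hspe1 in females (-0.07), and Hspe1 was the highest in males (0.09). In the genotype by sex interaction 3 of 11 were higher at an unadjusted p under 0.05, against 4.71% of all genes upwards. There Hspa1b had a log2 value of 2.27 (adjusted p = 0.0685) and Hspa1a of 1.77 (adjusted p = 0.195) by edgeR, and DESeq2 called both (adjusted p = 0.000765 and 0.0341). DESeq2 also called both higher in females than in males among PE-/- mice (adjusted p = 2.07e-06 and 1.08e-05), where edgeR called neither (adjusted p = 0.218 and 0.327). Hspa1a and Hspa1b are near-identical copies whose reads may be shared.

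**Figure D5:**
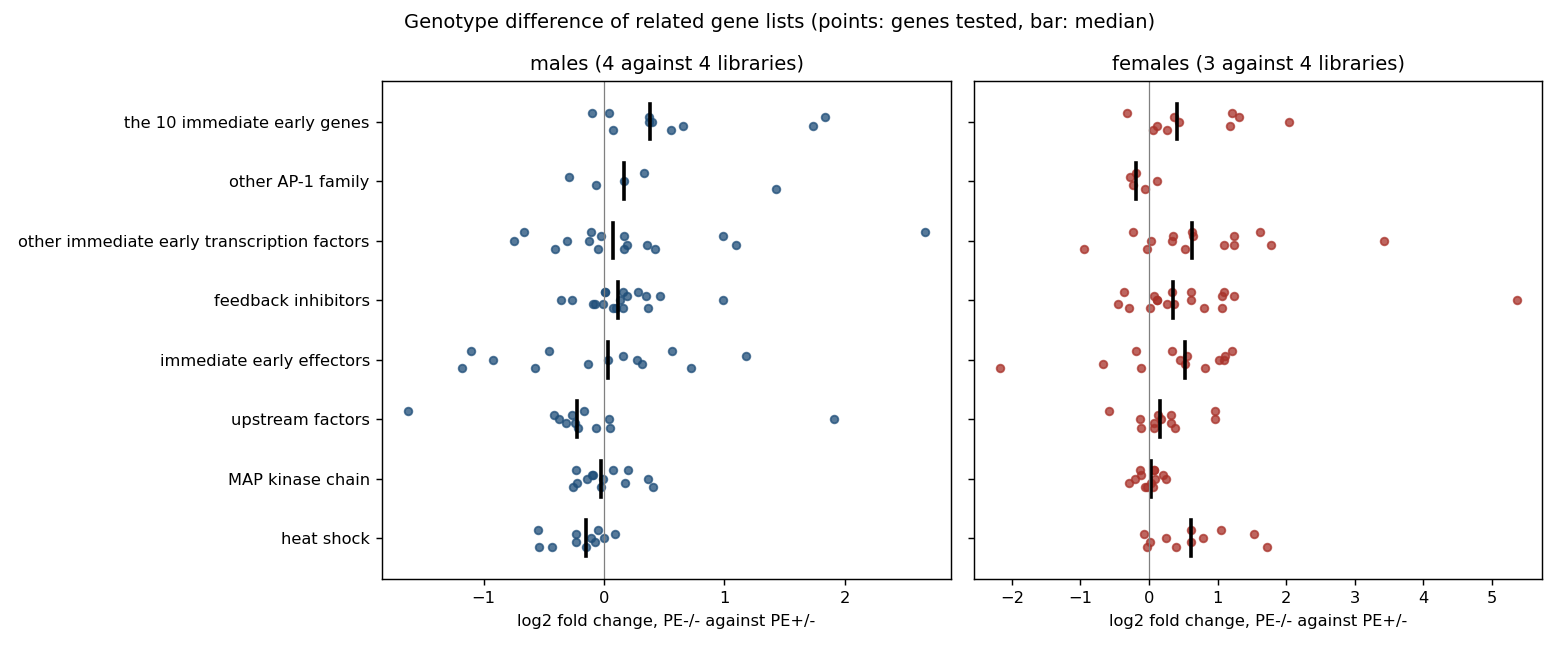
Log2 fold change of PE-/- against PE+/- for every tested gene (points) of the immediate early genes and of 7 related lists, with the list median as a bar, in males (left) and females (right). The medians of the 10 immediate early genes are 0.38 and 0.40, and the medians of the heat shock genes are -0.15 in males and 0.62 in females.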

How the data were processed

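Whole pituitaries of PE+/- and PE-/- mice were profiled by RNA-seq with a low-input kit. Per the labels and methods, the authors used cutadapt for trimming, STAR for mapping (mm10) and featureCounts for counting. The deposited table held estimated counts, whole and not normalized, with row names of an assembled annotation. Over 34309 single-transcript genes the value 5 came up 1.41 times as often as the values next to it, so that about 4 counts stood for 1 fragment. A step that makes such values was not given in the sources used here, nor were the strand setting or the annotation release. The design text counts the replicates as mice. Totals ran from 12982794 to 30238443 counts, which sets the precision, and the floor of 12 counts covers counting error only.

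Each comparison was fitted on its own libraries in R 4.3.3 with edgeR 4.0.16 (filterByExpr with minimum count 10 and minimum total count 15, TMM, quasi-likelihood F test, two-sided, Benjamini-Hochberg over all genes tested, threshold 0.05). The deposited counts were already whole, so none was rounded. The standard error was the log2 fold change divided by the square root of F. Levels are CPM on TMM-scaled library sizes. The fit of genotype with sex as a covariate was added after seeing the data. Correlations used log2 CPM with a prior count of 2, centred on group means, and exact permutations of libraries within groups (82944 arrangements for 15 libraries, 576 for 8). Alternatives were DESeq2 1.42.0, its size factors in edgeR, library totals, no filter, a filter of 1 CPM, counts divided by 4, a single fit on 15 libraries, summed rows, the replicate number as a block, a prior count of 0.5 and leaving out each library. Scripts were tested on simulated data. The members and lists were chosen with earlier results of these data known. The genes named were the 10 members, the highest and lowest fitted difference between the genotypes in each sex and the genes past the threshold in each related list, Nr5a1, Lhb, Fshb and Gnrhr, and the 10 genes most like the members' mean. The highest and lowest of the MAP kinase chain in males are not reported here. Genes called by DESeq2, overlapping genes, markers of other cell types and Nr4a2 and Nr4a3 were named after their values were seen. Junb had a second row with 2 counts in all, and only its main row was used. Coordinates are those of GENCODE M21 (mm10), and promoters are RefSeq windows on GRCm38.p6. No column was left unmatched.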

Additional observations from a re-analysis of the deposited data

Results flagged for a closer look

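A library that stood far from the other 3 of its group in CPM was looked for in 30 groups of 4 (10 members in 3 groups, the group of 3 not being tested). Chance flags about 1 in 20 where values are normally distributed. The CPM were taken without logs, so that this rate need not hold here. Such a library was found 4 times. Fos was at 192 CPM in PE+/- female 1 against 14.95 to 43.9 in the other PE+/- females. Fosb was at 1.27 CPM in PE-/- male 3 against 7.51 to 8.65 in the other PE-/- males. Egr1 was at 1030.5 CPM and Dusp1 at 637 CPM in PE+/- male 1, against 108 to 138 and 19.0 to 80.7 in the other PE+/- males. Both of the latter were in the library in which all 10 members lay above the group mean, and in which Plvap was highest and Ergic1, which overlaps Dusp1, was lowest. No cause was tested for any of the 4.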

How the results depend on the processing

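With 3 or 4 libraries a group, differences inside the 95% interval given for a member could not be told from one another. Egr2 was too low in counts to resolve a difference. The members past an adjusted p of 0.05 stayed at 0 under every alternative but these: DESeq2 called 1 in females (Dusp1), and leaving out each library in turn gave 0 to 1 with sex as a covariate (Dusp1, without PE+/- male 1). No other log2 fold change of a member crossed the threshold, but DESeq2 gave 2 members no adjusted p for sex in PE+/-. The replicate numbers did not pair the libraries (r of same-numbered libraries -0.081 to 0.132 over all genes, with 0 pairs over 0.1 in males and 1 of 3 in females). The library closest to each one carried its own number for 0 of 8 libraries in males, 4 of 6 in females, 0 of 8 for sex in PE+/- and 2 of 6 for sex in PE-/-, and so not throughout. No scaling moved the median of all genes by more than 0.1.

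The count of all genes past the threshold moved more. DESeq2 gave 206 in males (23 by edgeR), 1431 in females (189), 900 for sex in PE+/- (115), 41 for sex in PE-/- (9), 392 for the interaction (31) and 768 with sex as a covariate (226). The replicate block gave 0, 1, 0, 0, 11 and 88 in the same order. A single fit on all 15 libraries gave 37 in males, 714 in females and 421 for sex in PE+/-, and no low-count filter gave 123 in females and 66 for sex in PE+/-. Leaving out a library gave 11 to 35 in males, 29 to 244 in females, 34 to 113 for sex in PE+/-, 7 to 27 for sex in PE-/-, 7 to 71 for the interaction and 75 to 267 with sex as a covariate, the lowest count in females and over both sexes being without PE-/- female 3. Why the tools differ was not tested. Of the correlated pairs, 1 passed with the replicate number removed as well, and 0 to 1 passed without a library (1 without PE+/- female 1). Of the relations with the library total 0 to 1 passed (1 without PE-/- male 1).

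The sign of small differences was not stable. With the replicate block, Fos (-1.01) and Egr1 (0.73) turned in males, Fos (-0.027) and Jun (0.41) in females, Atf3 (-0.020) and Nr4a1 (-0.88) for sex in PE+/-, Fosb (0.31), Junb (0.15), Egr1 (0.23) and Ier2 (0.0045) for sex in PE-/-, and Nr4a1 (0.22) in the interaction. The interaction of Fos also turned with library totals (-0.080) and with counts divided by 4 (-0.00086), and that of Ier2 with library totals (-0.030). Among libraries left out, the log2 fold change in males ran from -0.57 to 1.38 for Egr1, -0.30 to 0.57 for Jun, -0.17 to 0.29 for Atf3 and -0.98 to 0.83 for Fos. In females it ran from -0.19 to 0.56 for Fosb, -1.19 to 1.21 for Egr2, -0.16 to 0.63 for Atf3, -0.69 to 0.17 for Jun and -0.14 to 1.52 for Fos. For sex in PE+/- it ran from -0.16 to 0.86 for Jun, -0.83 to 1.29 for Egr2, -0.30 to 0.37 for Atf3, -0.85 to 0.72 for Nr4a1 and -0.19 to 1.28 for Fosb. For sex in PE-/- it ran from -0.49 to 0.024 for Fosb, -0.42 to 0.050 for Nr4a1, -0.19 to 0.15 for Jun, -0.33 to 0.16 for Junb, -0.84 to 0.10 for Egr1, -0.42 to 0.015 for Ier2 and -0.15 to 0.52 for Atf3. In the interaction it ran from -0.50 to 1.36 for Fos, -0.16 to 2.33 for Egr1, -0.23 to 0.57 for Atf3, -0.50 to 2.05 for Dusp1, -0.14 to 0.46 for Ier2, -0.87 to 0.12 for Jun, -1.41 to 0.025 for Fosb and -0.91 to 0.64 for Nr4a1. With sex as a covariate it ran from -0.30 to 0.13 for Jun, -0.27 to 0.87 for Fos and -0.021 to 0.32 for Atf3. The differences of Nr4a1 in males and of Junb and Dusp1 in females stayed above 0 under all alternatives, with Nr4a1 at 2.10, Junb at 1.76 and Dusp1 at 2.01 under the replicate block. Those of Junb, Fosb, Egr2, Dusp1 and Ier2 in males and of Egr1, Nr4a1 and Ier2 in females also stayed above 0.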
